A study of Mus musculus with 6 samples.

Results

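The genes described here are the globins and red cell genes of the kidney: Hba-a1 and Hba-a2, the paired genes of the adult alpha globin chain, Hbb-bs and Hbb-bt, the paired genes of the adult beta globin chain, Bpgm and Slc25a37. They were chosen by symbol, with their values in these kidneys already known, and 5 of the 6 are among the 7373 rows of the deposited table; Hbb-bt was not analysed here. The tissue was frozen kidney from adult males of the inbred mouse strain FVB/N. The 3 transgenic kidneys came from mice that overexpress CryAB, a small heat shock protein, carrying the R120G missense mutation, and were taken before heart failure set in. The transgene is driven by the α-myosin heavy chain promoter, which is active in heart muscle cells, so the kidney itself is not its target. The 3 control kidneys came from male mice of matched age, and no allele or treatment is named for them. The value columns of both groups carry the label Pre_IRI, which is not interpreted here. The samples are described as triplicate kidneys without animal numbers, so the spread between them may be partly technical.

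Hemoglobin, the oxygen carrier of red cells, is built from pairs of alpha and beta globin chains, each holding a heme group with an iron atom. Mature mammalian red cells have no nucleus and no longer transcribe genes, but young red cells, the reticulocytes, still carry large amounts of globin mRNA. Globin mRNA in a solid organ is therefore commonly read as a trace of the blood left in its vessels. Bpgm encodes bisphosphoglycerate mutase, which makes the 2,3-bisphosphoglycerate that lowers the oxygen affinity of hemoglobin. Slc25a37 encodes mitoferrin 1, which brings iron into the mitochondria of developing red cells for heme synthesis.

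The alpha globin copies lie side by side on chromosome 11, Hba-a1 (gene ID 15122) at 32283672 to 32284486 and Hba-a2 (gene ID 110257) at 32296492 to 32297310 on mm10. In the GENCODE annotation of that build their coding sequences, 429 bases each, differed at 1 base. The difference was C381T, read from Hba-a1 to Hba-a2 and counted from the A of the start codon, and it lies in the last exon of both genes. Both codons, GAC and GAT, stand for aspartate, so the copies encode the same protein. These are the stretches of 61 coding bases around it, shown because a read within the coding sequence can be told to come from one copy or the other only if it covers the base in capitals. They lie on the plus strand at chr11:32284313-32284373 and chr11:32297130-32297190 (GRCm38).
Hba-a1: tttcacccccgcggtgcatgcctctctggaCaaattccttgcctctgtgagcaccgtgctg
Hba-a2: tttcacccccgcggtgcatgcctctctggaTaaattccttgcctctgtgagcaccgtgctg
Of the 355 stretches of 75 bases in the Hba-a2 coding sequence, 86.2% also occur in Hba-a1, which leaves 49 that belong to 1 copy. The retained-intron transcripts annotated for the pair matched at 493 of 494 bases. The beta globin pair on chromosome 7 is built alike: Hbb-bs and Hbb-bt matched at 443 of 444 coding bases. The annotated transcripts have 699 bases for Hba-a1 and 554 bases for Hba-a2, and their parts after the stop codon were not compared. Whether reads there tell the copies apart was not tested. Which of the differing coding bases the FVB/N strain carries was not tested either. How reads that fit both copies were assigned is not given in the sources used here, so the split of counts between Hba-a1 and Hba-a2, and between Hbb-bs and Hbb-bt, is uncertain.

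The copies also share their upstream sequence. The RefSeq windows around the Hba-a1 and Hba-a2 starts (GRCm38.p6) were identical over all 297 overlapping bases, shifted by 3 bases. The 250 bases before the starts of Hba-a2 (plus strand, chr11:32296242-32296491) and Hbb-bs (minus strand, chr7:103827929-103828178) are shown because they carry the elements that alpha and beta globin promoters have in common. Capitals mark matches, on either strand, to the letters GATAA (as bound by GATA factors), CACCC (as bound by KLF1, an activator of globin genes), CCAAT and TATAA (the TATA box).
Hba-a2: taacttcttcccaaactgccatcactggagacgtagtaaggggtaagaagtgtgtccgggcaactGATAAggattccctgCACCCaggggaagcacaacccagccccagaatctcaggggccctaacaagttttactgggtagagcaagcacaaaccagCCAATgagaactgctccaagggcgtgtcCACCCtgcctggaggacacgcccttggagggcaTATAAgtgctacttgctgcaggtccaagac
Hbb-bs: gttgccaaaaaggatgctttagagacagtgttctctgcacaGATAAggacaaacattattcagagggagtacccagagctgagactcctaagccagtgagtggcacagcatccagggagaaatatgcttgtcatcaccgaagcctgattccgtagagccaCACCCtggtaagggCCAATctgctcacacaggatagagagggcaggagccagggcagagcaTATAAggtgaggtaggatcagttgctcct
All 4 motifs were present in each. Over 32851 RefSeq promoters with windows of this length, GATAA was found in 22.6%, CACCC in 52.0%, CCAAT in 33.9% and TATAA in 22.8%. In the Bpgm window CCAAT was found 3 times and the other 3 motifs were not found. A match is a run of letters and not a measured binding site.

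Sequencing depth was 23.5 to 31.7 M estimated counts in the transgenic libraries and 28.0 to 47.6 M in the control libraries, summed over the listed genes. All 7 kidney tubule markers checked, among them Lrp2, Umod and Aqp2, were listed, and their summed level was 12110 to 13230 CPM in transgenic kidneys and 12330 to 12990 CPM in control kidneys (CPM, the count scaled to the TMM-adjusted library total). Control 3 stood apart from the other libraries. The 178 genes on X and Y were all at 0 in that library, and no other gene was. These rows were left out of the tests.

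Hba-a1 and Hbb-bs were well expressed, with lower means in transgenic kidneys and overlapping groups. Hba-a1 stood at 331, 463 and 286 CPM in transgenic kidneys 1, 2 and 3, against 557, 482 and 231 CPM in control kidneys 1, 2 and 3. The groups overlapped, and both the highest and the lowest value belonged to control kidneys. The means were 359.9 ± 92.1 CPM in transgenic kidneys and 423 ± 171 CPM in control kidneys (SD, n = 3 each), which is -0.23 ± 0.30 (SE) as a log2 fold change. Without control 3 the log2 fold change was -0.53, and without control 1 it was 0.01, so its sign rests on control 1.

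Hbb-bs (gene ID 100503605) lies on chromosome 7 at 103826523 to 103827928 of mm10. Its level was 247, 292 and 212 CPM in transgenic kidneys, against 354, 284 and 300.5 CPM in control kidneys. Transgenic kidney 2 lay above control 2, and the other transgenic values were below all 3 controls. The means were 250.5 ± 40.2 CPM in transgenic kidneys and 313 ± 36.5 CPM in control kidneys (SD, n = 3 each), which is -0.32 ± 0.13 (SE) as a log2 fold change. Leaving out 1 library at a time kept it between -0.45 and -0.21. No p-value is given for these genes or for the other members, since they were chosen with this contrast known.

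Hba-a2 behaved otherwise. It had 30.1, 46.8 and 38.6 estimated counts in transgenic kidneys, which is 1.05, 2.06 and 1.24 CPM, against 384.9, 445.4 and 12.3 estimated counts in control kidneys, which is 14.2, 12.7 and 0.258 CPM. Control kidneys 1 and 2 were therefore high, the 3 transgenic kidneys were low, and control 3 was the lowest of all. The groups overlapped through control 3. The means were 1.45 ± 0.534 CPM in transgenic kidneys and 9.04 ± 7.64 CPM in control kidneys (SD, n = 3 each), and the fitted log2 fold change was -2.64 ± 1.03 (SE), a fold of 0.160. The difference of the mean log2 levels, in which control 3 weighs more, was -1.37. Without control 3 the fitted log2 fold change was -3.24. With all 6 libraries Hba-a2 was not called.

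**Figure D1:**
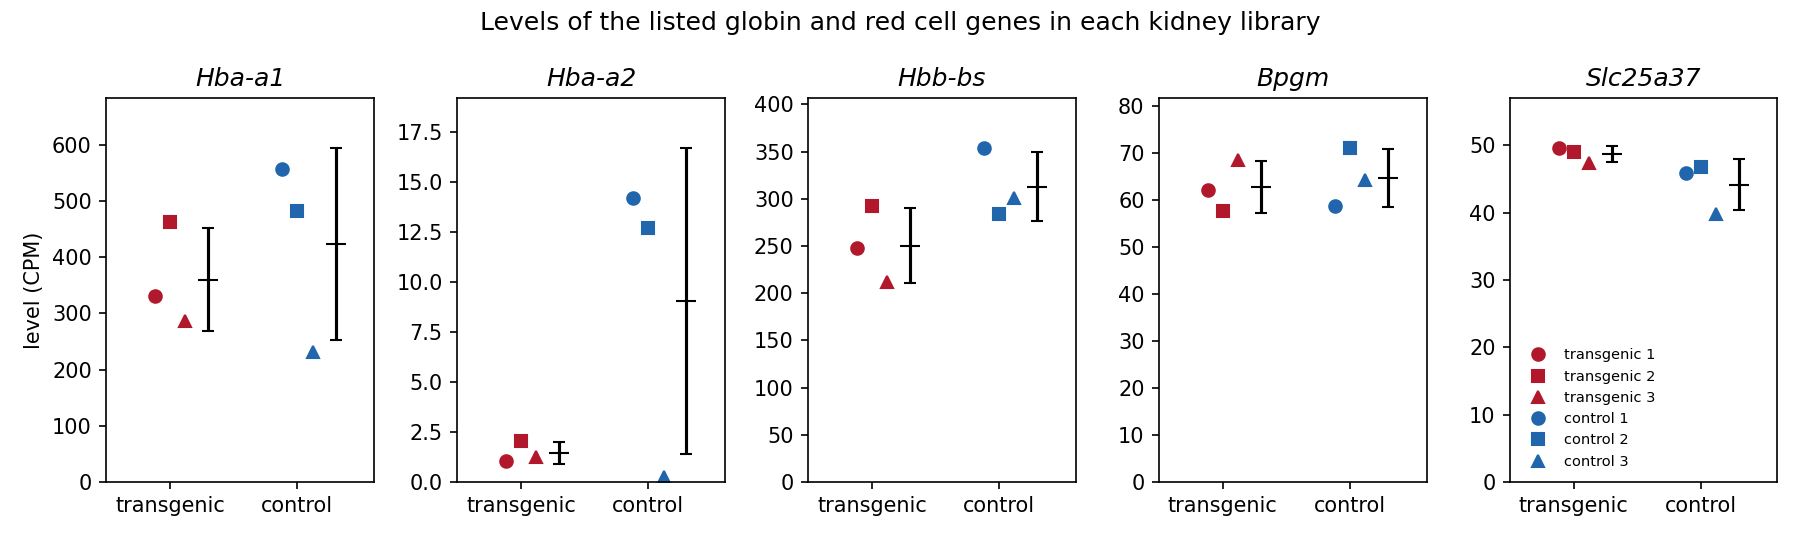
Level in CPM (vertical axes, each starting at 0) of the 5 listed genes in each kidney library, transgenic left and control right; symbols mark the replicate, and the horizontal mark with bars is the mean ± SD (n = 3). Hba-a2 is high in controls 1 and 2, at 14.2 and 12.7 CPM, and at most 2.06 CPM in the other libraries, while the other genes vary by at most 2.41-fold between libraries.

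The counts of Hba-a1, Hbb-bs and Hba-a2 were next compared within each library, since ratios between them do not depend on how much of the library is globin RNA. Summed, Hba-a1 and Hbb-bs stood at 578.7, 754.9 and 497.4 CPM in transgenic kidneys, against 910.7, 766.1 and 531.3 CPM in control kidneys. The mean log2 difference between the groups was -0.26; it was -0.09 without control 1, -0.12 without transgenic kidney 3, -0.42 without transgenic kidney 2 and -0.47 without control 3, so single libraries of both groups move it. The lowest control value lay within the transgenic range. This sum leaves out the Hba-a2 counts and is used here as a rough measure of shared blood content. It is not independent of Hba-a2, since the split of counts between Hba-a1 and Hba-a2 is uncertain. In control 3 its parts went different ways: Hba-a1 was at its lowest, 231 CPM, while Hbb-bs was at 300.5 CPM, within the range of the other controls. In bulk tissue, fewer red cells and less globin RNA per red cell cannot be told apart.

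Hba-a2 made up 0.317% of the alpha globin counts in transgenic kidney 1 (95% Wilson interval 0.222 to 0.452), 0.442% in transgenic kidney 2 (0.333 to 0.588) and 0.432% in transgenic kidney 3 (0.316 to 0.590). It made up 2.48% in control 1 (2.25 to 2.74), 2.56% in control 2 (2.34 to 2.81) and 0.112% in control 3 (0.0639 to 0.195). The intervals cover counting error only. The 3 transgenic intervals overlapped one another, as did those of controls 1 and 2, while control 3 lay below all other libraries and controls 1 and 2 above them. Set against the summed Hba-a1 and Hbb-bs, Hba-a2 averaged -8.76 ± 0.305 on the log2 scale in transgenic kidneys and -7.64 ± 2.91 in control kidneys (SD, n = 3 each), a difference of -1.11. That difference is smaller than the spread among the controls; it was -2.80 without control 3, -0.25 without control 2 and -0.29 without control 1.

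The balance of alpha to beta globin overlapped between the groups. The Hba-a1 count divided by the Hbb-bs count was 1.34, 1.58 and 1.35 in transgenic kidneys, against 1.57, 1.70 and 0.768 in control kidneys. The means were 1.42 ± 0.139 in transgenic kidneys and 1.35 ± 0.505 in control kidneys (SD, n = 3 each). Control 3 had the lowest ratio, where Hbb-bs was at 300.5 CPM, within the range of the other controls, and both alpha globin genes were at their lowest. With the Hba-a2 counts added to those of Hba-a1 the ratio was 1.34, 1.59 and 1.35 in transgenic kidneys, against 1.61, 1.74 and 0.769 in control kidneys. Control 3 again had the lowest ratio. Hba-a2 made up at most 2.56% of the alpha globin counts of a library, so adding it could hardly move the ratios. Nothing is read from their likeness.

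**Figure D2:**
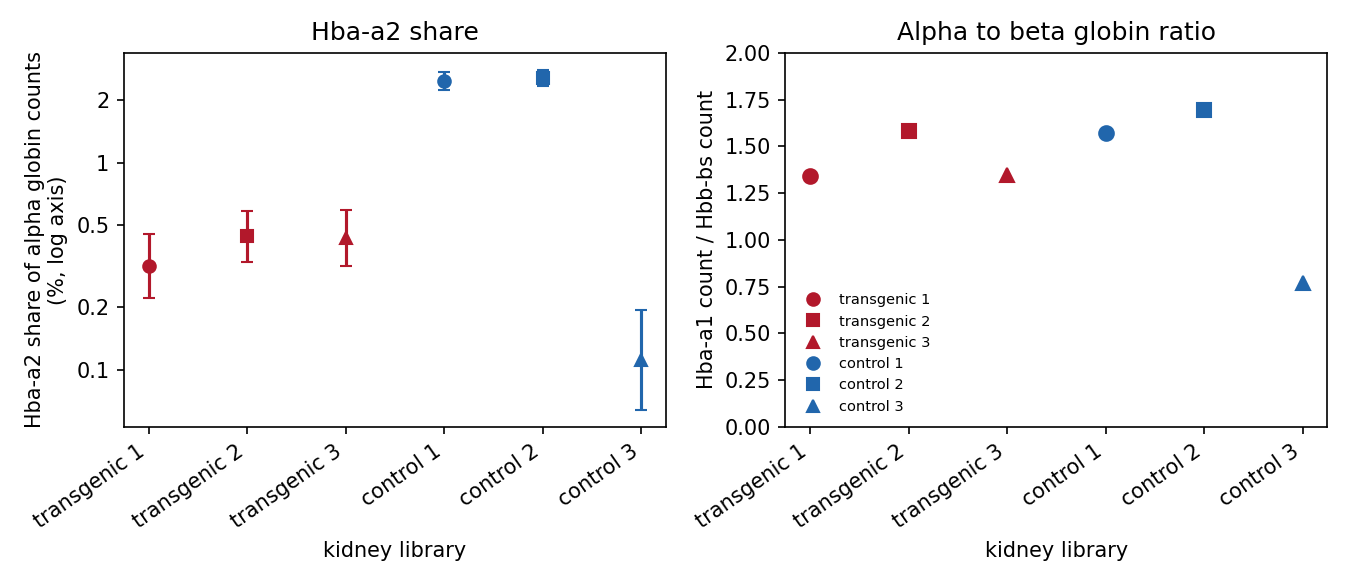
Left, Hba-a2 as a percentage of all alpha globin counts (log axis) in each kidney library with 95% Wilson intervals; right, the Hba-a1 count divided by the Hbb-bs count (axis from 0). The transgenic shares lie between 0.317% and 0.442%, controls 1 and 2 at 2.48% and 2.56% and control 3 at 0.112%, and control 3 also has the lowest ratio, 0.768.

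Per kilobase of annotated transcript, Hba-a1 and Hbb-bs were the most abundant of the 5 genes. Hba-a1 averaged 515 ± 132 CPM per kilobase in transgenic kidneys and 605.5 ± 244 in control kidneys (SD, n = 3 each), and Hbb-bs averaged 399 ± 64.0 in transgenic kidneys and 498 ± 58.1 in control kidneys. These neighbours do not differ beyond their spread. Bpgm followed at 28.3 ± 2.48 CPM per kilobase in transgenic kidneys and 29.2 ± 2.78 in control kidneys, and Slc25a37 at 11.7 ± 0.281 in transgenic kidneys and 10.6 ± 0.904 in control kidneys. Hba-a2 averaged 2.62 ± 0.964 CPM per kilobase in transgenic kidneys and 16.3 ± 13.8 in control kidneys, so its place relative to Slc25a37 changes from library to library.

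Bpgm and Slc25a37 differed little in level between the groups. Bpgm (gene ID 12183) lies on chromosome 6 at 34476356 to 34505136 of mm10. Its level was 62.3, 57.6 and 68.6 CPM in transgenic kidneys, against 58.8, 71.1 and 64.3 CPM in control kidneys, with a log2 fold change of -0.04 ± 0.11 (SE). Values of both groups were interleaved, and the sign turned without transgenic kidney 2 (0.02) or control 2 (0.03). Slc25a37 (gene ID 67712) lies on chromosome 14 at 69241848 to 69285544 of mm10. It was measured at 49.6, 49.0 and 47.3 CPM in transgenic kidneys, against 45.8, 46.8 and 39.8 CPM in control kidneys, with a log2 fold change of 0.14 ± 0.09 (SE) and 0.07 without control 3. All 3 transgenic values were above all 3 control values. Slc25a37 was the 1 of 5 members whose groups did not overlap; over all 7194 genes tested 5.98% did not overlap, 2.96% with transgenic higher and 3.02% with transgenic lower, and nothing is read from this count since the contrast was known when the genes were chosen. None of the 5 members was called by edgeR's quasi-likelihood test at an adjusted p of 0.05, where 0.0139% of all genes were.

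The genes differed most in how far they moved from library to library. The highest library exceeded the lowest 55.0-fold for Hba-a2, 2.41-fold for Hba-a1, 1.67-fold for Hbb-bs, 1.24-fold for Slc25a37 and 1.23-fold for Bpgm, where the median of the 7191 genes above 0 in every library was 1.29-fold. Of those genes 3 had a larger range than Hba-a2, and 71 had a larger range than Hba-a1. The 3 were Ugt1a5 (89.3-fold), Ugt1a1 (121-fold) and Cfd (1796-fold), named here after their values were seen. Ugt1a1 and Ugt1a5 encode glucuronosyltransferases whose transcripts share their last exons, and Cfd encodes adipsin, a product of fat cells.

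Within the transgenic group Hba-a1, Hbb-bs and Hba-a2 were all highest in kidney 2. Centred on its own mean over the 6 libraries, Hba-a1 lay at -0.17, 0.31 and -0.39 in transgenic kidneys 1, 2 and 3 on the log2 scale, Hbb-bs at -0.17, 0.07 and -0.39, and Hba-a2 at -1.08, -0.12 and -0.85. In control kidneys 1, 2 and 3 Hba-a1 lay at 0.58, 0.37 and -0.69, Hbb-bs at 0.35, 0.03 and 0.11, and Hba-a2 at 2.67, 2.50 and -3.11. The 3 globins had in common that control 1 was their highest library, but in control 3 Hbb-bs parted from both alpha globin genes. Bpgm lay between -0.14 and 0.16 and Slc25a37 between -0.22 and 0.10 over all 6 libraries, and neither was highest in control 1.

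**Figure D3:**
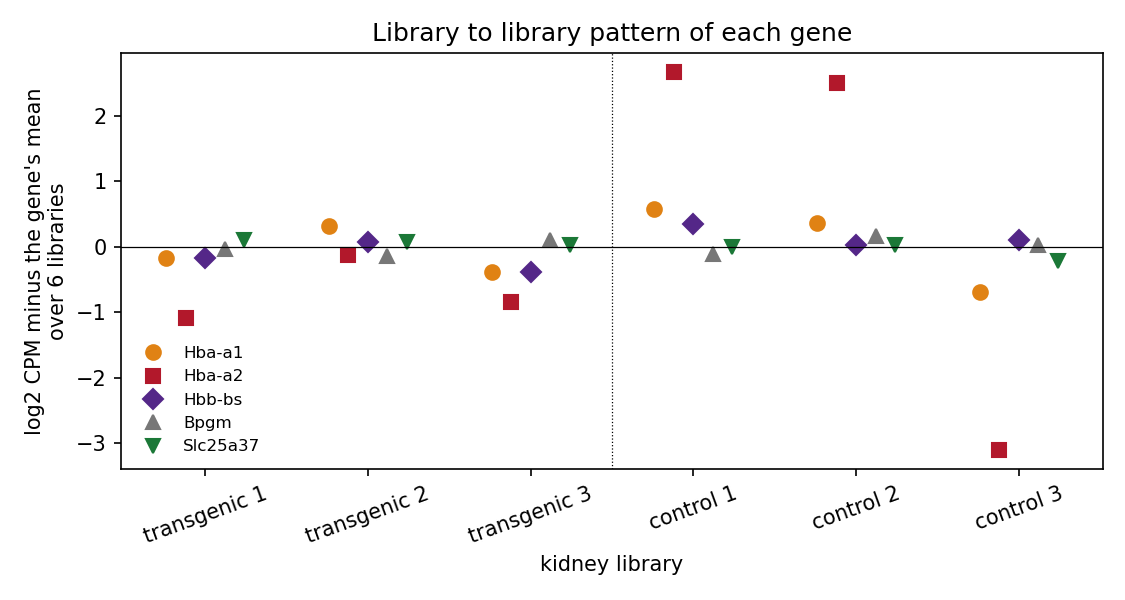
Level of each of the 5 genes in each kidney library as log2 CPM minus that gene's mean over the 6 libraries (vertical axis); each symbol and colour is 1 gene, and the dotted line separates transgenic from control libraries. Hba-a2 reaches 2.67 in control 1 and -3.11 in control 3, Hba-a1 lies above 0 in controls 1 and 2 and below 0 in control 3 over a smaller range, and Bpgm and Slc25a37 stay within 0.22 of 0.

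The genes closest to Hbb-bs in pattern, by the root mean square difference of the centred log2 levels over the 6 libraries, were Upp2 (0.065), Aldoc (0.078), Eri2 (0.080), Snord4a (0.087) and Arl4a (0.091), where a flat gene would differ from Hbb-bs by 0.231. No other globin and none of the listed red cell genes was among the 5. For Hba-a2 the closest were BC021614 (1.61), Hba-a1 (1.63), Tbx10 (1.64), Gadd45g (1.68) and 8430408G22Rik (1.68). A flat gene would differ from Hba-a2 by 2.04, so no gene came near its pattern in size, and Hba-a1, its twin copy, was the second closest. These likenesses are descriptions over 6 libraries that share 1 table and its scaling.

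Other genes of red cells gave a limited view of blood content. Of 10 markers of red cells and reticulocytes, 4 could be read, Hba-a1, Hbb-bs, Slc4a1 and Alas2, while the others were not analysed here. Slc4a1 encodes the anion exchanger of the red cell membrane, which acid-secreting intercalated cells of the kidney also use. It stood at 35.3, 33.8 and 27.9 CPM in transgenic kidneys, against 40.3, 34.5 and 30.7 CPM in control kidneys, a log2 fold change of -0.12 ± 0.13 (SE). Without 1 library it ranged from -0.21 (without control 3) to -0.01 (without control 1), and it was -0.03 without transgenic kidney 3. It was not called by edgeR (Benjamini-Hochberg adjusted p = 0.997). Alas2 encodes the first enzyme of heme synthesis in red cell precursors and lies on chromosome X. It stood at 8.12, 9.16 and 8.31 CPM in transgenic kidneys, against 11.8 and 11.6 CPM in controls 1 and 2, and was listed at 0 in control 3 with all other X genes; these levels are scaled with the X and Y rows included. It was not tested. In the 5 libraries with a value the groups of Alas2 did not overlap. Nothing is read from this, since Alas2 was added after its values were seen. The library without a value, control 3, was the lowest for both alpha globin genes. The share of all genes tested that did not overlap, 5.98%, is for 3 against 3 libraries and cannot be set beside it.

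Of 10 white blood cell markers 3 could be read, Cd52, Coro1a and Lyz2, and summed they stood at 19.4 to 24.6 CPM in transgenic kidneys and 21.3 to 29.7 CPM in control kidneys. The sum was highest in control 3, as were Lyz2, at 14.3 CPM, and Cd52, at 5.27 CPM against 5.16 CPM in transgenic kidney 2. Coro1a was highest in transgenic kidney 2 (10.5 against 10.2 CPM in control 3). Cd74 and Igj, which are not among these 10 markers, were highest in control 2 (199.5 CPM) and in transgenic kidney 2 (38.0 CPM). The 6 platelet markers were not analysed here. What part the blood content plays in the alpha globin values of control 3 was not tested.

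Lists of genes around hemoglobin, its heme, its iron and the sensing of oxygen were compared in the same fit. Apart from the members, 88 of their genes were tested, and edgeR, DESeq2 and limma voom each called 0 of them at an adjusted p of 0.05. With edgeR 1 of the 88 had an unadjusted p under 0.05, against 131 of all 7194 genes tested, and their lowest edgeR adjusted p was 0.997. The groups did not overlap for 6 of the 88, where 5.98% of all genes tested did not overlap. Over all genes tested, the log2 fold change had a median of 0.00.

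Of the 12 red cell membrane and reticulocyte genes tested, out of 38 on the list, 2 had positive and 10 negative log2 fold changes, with a median of -0.11. The smallest p-values belonged to Fech, the enzyme that puts iron into heme (-0.14), Car2, a carbonic anhydrase of red cells and intercalated cells (-0.24), and Bnip3l, which removes mitochondria from maturing red cells (-0.17). Car2 was at 341, 316 and 329 CPM in transgenic kidneys, against 342, 303 and 519.6 CPM in control kidneys, so control 3 alone was high. Without control 3 the 3 genes were at -0.04, 0.03 and -0.01, and the list median was -0.01, with 5 positive and 7 negative.

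Heme synthesis was measured almost in full, with 15 of its 16 genes listed and 14 tested, 9 positive and 5 negative, at a median of 0.01. Alad, which joins aminolevulinic acid into porphobilinogen, was at 311, 319 and 334 CPM in transgenic kidneys, against 305, 289 and 285 CPM in control kidneys (log2 fold change 0.13 ± 0.08, SE), without overlap. Fech (-0.14) and Cpox, coproporphyrinogen oxidase (-0.12), had every transgenic value below every control value, but only just. The closest pairs were 110.2 and 110.4 CPM for Fech and 48.4 and 48.6 CPM for Cpox. Cpox was at -0.05 without control 3. Alas1, the heme synthesis enzyme of cells other than red cells, was at 0.02, with values from -0.18 to 0.23 without 1 library. None of these differences was called by the test.

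The 18 iron genes tested, out of 28 on the list, had a median of -0.05, with 6 positive and 12 negative. Without control 3 the list had 9 positive and 9 negative genes and a median of 0.00. Trf, the plasma iron carrier transferrin (-0.57), Ncoa4, which delivers ferritin for breakdown (-0.37), and Fbxl5, which senses iron (-0.24), had the smallest p-values. For each of them the highest of the 6 libraries was a control. Trf was at 14.3, 9.27 and 12.9 CPM in transgenic kidneys, against 12.5, 28.2 and 13.3 CPM in control kidneys, and its log2 fold change was -0.09 without control 2. Ncoa4 and Fbxl5 were highest in control 3 and were at -0.08 and -0.04 without it. Slc25a28, which encodes mitoferrin 2, the iron carrier of mitochondria in other tissues, was at 64.1, 68.3 and 62.2 CPM in transgenic kidneys, against 60.8, 76.3 and 52.0 CPM in control kidneys. Its log2 fold change was 0.04 ± 0.14 (SE), and the test did not call it; the value was -0.08 without control 3 and 0.20 without control 2.

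Of the 16 oxygen sensing and erythropoietin genes tested, out of 26 on the list, 9 were positive and 7 negative, with a median of 0.05. Epo and Epor, the hormone that drives red cell production and its receptor, were not analysed here. Vegfa, a target of the hypoxia-inducible factors, was the 1 list gene with an unadjusted p under 0.05. It stood at 217, 175.1 and 182 CPM in transgenic kidneys, against 141.5, 174.8 and 145 CPM in control kidneys, a log2 fold change of 0.32 ± 0.12 (SE), with all transgenic values above all control values, the closest pair being 175.1 and 174.8 CPM. It was not called by edgeR (adjusted p = 0.997). Gata2, a GATA factor of blood precursors and of the collecting duct (0.25), and the phosphatase gene Ptpn6 (0.12) came next, also without passing. Gata2 was at 0.15 without control 3 and likewise at 0.15 without transgenic kidney 1. Epas1, the hypoxia-inducible factor that drives erythropoietin in the kidney, was at 0.08, and at 0.02 without transgenic kidney 1 and 0.16 without transgenic kidney 2.

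No gene of the remaining lists was called either. The 15 glycolysis genes tested, which form the pathway that Bpgm branches from, had a median of 0.00, and the smallest p-values belonged to the pyruvate kinase gene Pkm (-0.17), Gapdh, a dehydrogenase of the pathway (0.13), and Pgam2, a phosphoglycerate mutase (0.09). Gapdh was at 0.02 without control 3, and Pgam2 ranged from 0.03 to 0.17 without 1 library. The 11 genes of heme breakdown and transport had a median of 0.00, and the smallest p-values belonged to Blvra, which reduces biliverdin to bilirubin (-0.09), Slc46a1, a folate transporter that also carries heme (0.07), and Cubn, a receptor of the proximal tubule that takes up filtered hemoglobin (0.06). Slc46a1 was at 0.01 without control 3, and Cubn ranged from 0.00 to 0.13 without 1 library. The 5 white blood cell genes tested had a median of -0.12, and the smallest p-values belonged to Cd74, a partner of antigen-presenting molecules (-0.12), the lysozyme gene Lyz2 (-0.22) and the lymphocyte surface gene Cd52 (-0.23). The list had a median of 0.01 without control 3, where Lyz2 was at 0.01 and Cd52 at -0.07. Lyz2 was at -0.43 without transgenic kidney 3. Cd74 was at -0.02 without transgenic kidney 1, at -0.04 without control 2 and at -0.21 without transgenic kidney 3, and Cd52 at -0.04 without transgenic kidney 1 and at -0.50 without transgenic kidney 2. Without control 3, 10 of the 11 heme breakdown genes were positive, with a median of 0.04, against 5 with all libraries. Blvra was then at 0.04.

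**Figure D4:**
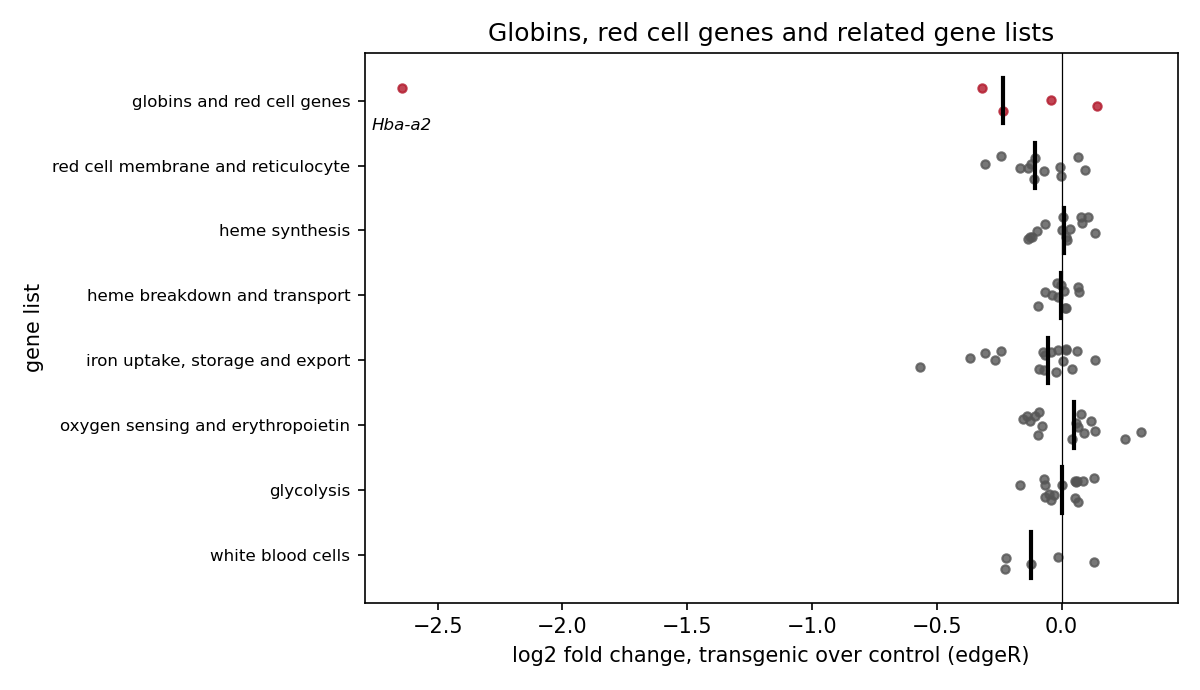
Log2 fold change, transgenic over control, from the edgeR fit (horizontal axis) of each tested gene, in rows by gene list; red points are the 5 listed globins and red cell genes, grey points the genes of the related lists, and black bars the medians. Hba-a2 lies at -2.64, the other 4 members between -0.32 and 0.14, and all list genes between -0.57 and 0.32.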

How the data were processed

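RNA of 3 transgenic and 3 control kidneys was sequenced from column-purified RNA, per the labels' protocols. The authors deposited 1 table of 7373 rows with estimated counts per gene (not whole numbers) and log2 values normalized by the authors; per the file headers, a gene needed an NRPKM of 5.0 or more in at least 2 of 6 samples to be listed. The genome build was mm10, per the submitters' processing notes; for the aligner and the counting program, no name is given in the sources used. Of 24 columns of per-sample values, 12 match these samples and the other 12 were not used.

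Estimated counts were rounded and tested on group with glmQLFTest of edgeR 4.0.16 in R 4.3.3 (a quasi-likelihood test), after filterByExpr, which removed 1 gene, and TMM scaling, with 178 X and Y rows left out because 1 control library listed them all at 0. Benjamini-Hochberg adjustment ran over 7194 genes, with a threshold of 0.05; tests were two-sided. All 5 listed members passed the filter. Standard errors are the log2 fold change over the square root of F. With 3 against 3, an exact permutation test of 1 gene cannot go below 0.1. DESeq2 (version 1.42.0) and limma (version 3.58.1) were alternatives. The scripts were tested on simulated data with 200 changed genes. Sequences came from GENCODE vM21 and RefSeq (GRCm38.p6), where 5 of the 6 members have a promoter entry.

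The members, lists and tests were chosen with earlier results of these data known. Named are the members, up to 3 genes per list with the smallest p-values, and the 5 genes nearest in pattern to Hba-a2 and Hbb-bs. Cell type markers and the gene called by edgeR are also named. Igj, from the white blood cell list, falls under none of these rules. Slc4a1, Alas2, Alas1, Slc25a28, Epas1, Ugt1a1, Ugt1a5 and Cfd were added after their values were seen.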

Additional observations from a re-analysis of the deposited data

How the results depend on the processing

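With edgeR 1 gene out of 7194 was called, Ren1, which is no member; 131 genes had an unadjusted p under 0.05. The edgeR count was 0 with X and Y genes included (112 at an unadjusted p under 0.05) and 0 with plain library totals (132). The authors' log2 values gave 0 in limma (134), and DESeq2 called 2, Ren1 among them. Without 1 library the edgeR count ranged from 0 to 2 (47 to 597 at an unadjusted p under 0.05), the 2 coming without control 3 (Ren1 and Hba-a2). Nothing is read from that call of Hba-a2. Its lowest library is the one left out, and the gene was chosen with this contrast known. The count of called list genes was 0 under all 16 alternatives run. Hba-a2 had no value under the filter at a mean of 10 CPM, which removes it. Its log2 fold change was -1.08 with limma voom, -1.39 on the authors' log2 values and -1.91 with the replicate block, against -2.64 in the main fit, and ranged from -3.24 to -2.16 without 1 library. Hba-a1 ranged from -0.53 to 0.01, Hbb-bs from -0.45 to -0.21, Bpgm from -0.11 to 0.03 and Slc25a37 from 0.07 to 0.19 without 1 library. The summed Hba-a1 and Hbb-bs ranged from -0.47 to -0.09. The replicate numbers do not say whether samples were paired. Same-numbered deviations correlated at 0.005, 0.019 and 0.340 across genes, and differently numbered ones at -0.425 to 0.415. These values cannot settle it, since deviations within a group of 3 depend on one another. With the replicate block the count of called genes stayed at 1. At 12.3 estimated counts, the Hba-a2 value of control 3 is limited by counting error.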
